A study of Mus musculus with 15 samples.

Results

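The 40 genes described here are interferon-stimulated genes, the genes that cells switch on when an interferon binds its receptor. They were taken by name from a list that was drawn up with earlier results of these data known but sets no condition on their measured values, and all 40 were found among the 52526 genes with a value in each mouse. The values came from mammary tissue of female nude mice (nu/nu, Crl:NU-Foxn1nu), which received the flame retardant BDE-47 or its vehicle. The study asked how low, prolonged exposure to this polybrominated diphenyl ether alters safeguards of the genome and innate immunity in the mammary gland, and type I interferon signaling is part of the second. RNA was read as tags from the 3′ end of transcripts, so that a transcript counts alike whatever its length, and scaled to CPM, the reads of a gene relative to all mapped reads.

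The BDE-47 group held 7 mice, which carried subcutaneous osmotic pumps that delivered BDE-47 in PEG300 with 1% DMSO (target dose, 0.03 mg/kg/d) over 16 weeks, starting at an age of at least 8 weeks. The vehicle group held 8 mice with pumps that delivered PEG300 with 1% DMSO alone over the same weeks. Each mouse gave 1 library from the left 4th mammary tissue. All mice of both groups were nude, so they lacked a thymus and the T cells that mature there. Some mice had a xenograft in the region for another study, and the labels used here do not say which. Tissue pieces hold several cell types, and fewer cells of a type cannot be told apart from less RNA per cell in such samples.

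Type I interferons bind a receptor made of IFNAR1 and IFNAR2, whose kinases JAK1 and TYK2 phosphorylate STAT2. Together with IRF9 it takes part in the complex ISGF3, which binds interferon-stimulated response elements, GAAA repeats in the promoters of its target genes. The products include sensors of foreign RNA and DNA, enzymes that degrade or block viral RNA, proteins that hinder entry or release of a virus, and factors such as IRF7 that drive more interferon. Many of these genes also have a resting level in tissue without infection.

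The promoters of some members hold the GAAA repeat, and the stretches around it are shown because this is the sequence that ISGF3 is known to bind. RefSeq promoters (GRCm38.p6, 250 bases before to 50 after the annotated start) were at hand for 30 of the 40 members. The motif GAAANNGAAA, searched on both strands with overlapping matches allowed, was in 13 of these 30 promoters (43.3%) and in 1079 of 27025 promoters of all genes (3.99%). With the bases before the start alone it was in 8 of 30 members (26.7%) and in 936 of 27025 genes (3.46%). Capitals mark the matches, which read TTTC where they lie on the other strand, lower case marks the flanks, and each line runs 5′ to 3′ on the strand of its gene.
Isg15: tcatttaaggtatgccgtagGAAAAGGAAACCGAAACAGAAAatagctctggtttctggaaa
Rsad2: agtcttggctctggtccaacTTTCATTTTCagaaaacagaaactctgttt
Ifit1: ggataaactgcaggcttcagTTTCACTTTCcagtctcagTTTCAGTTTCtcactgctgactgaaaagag
Ifit3: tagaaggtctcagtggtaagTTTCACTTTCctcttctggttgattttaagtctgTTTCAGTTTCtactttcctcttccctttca
Bst2: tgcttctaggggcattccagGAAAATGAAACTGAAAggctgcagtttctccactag
Oas3: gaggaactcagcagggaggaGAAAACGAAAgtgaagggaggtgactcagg
Stat2: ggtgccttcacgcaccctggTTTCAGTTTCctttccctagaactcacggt
The stretch of Isg15 lies at chr4:156200855-156200916 on the minus strand, where 3 matches run into each other at positions -78 to -57 from the start. That of Rsad2 is at chr12:26456543-26456592 (minus), with its single match at positions -120 to -111. Those of Ifit1 (chr19:34640765-34640833, plus) and Ifit3 (chr19:34583353-34583436, plus) hold 2 matches each, and the start used for Ifit3 lies 410 bases inside the gene as RefSeq outlines it. That of Bst2 is at chr8:71537567-71537622 (minus), with 2 matches. Those of Oas3 (chr5:120777705-120777754, minus) and Stat2 (chr10:128270256-128270305, plus) hold 1 match each, and the start used for Oas3 lies 25 bases inside the gene. A match describes the letters of the promoter and is no measure of binding in these mice.

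Depth was 10.06 to 19.58 M reads per mouse, and the deposited log2(CPM) values are 0 wherever a gene was under 1 CPM, which stood for 10.06 to 19.58 reads. A value of 0 is therefore written as listed at 0. Of 15 genes that every cell uses, 7 were listed at 0 in at least 1 mouse, among them Polr2a in 1 mouse and Tbp and Pgk1 in 12, so that a 0 does not show that a transcript was missing. For members that were listed at 0 in some mice, the lowest, median and highest values are given in place of a mean and SD.

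Vehicle replicates 6 and 8 stood apart. The B cell gene Cd79a was at 5.81 and 5.35 log2(CPM) in these mice and listed at 0 in the other 13. All 8 B cell markers were above 0 in both, with a summed 526.2 to 657 CPM against 0 to 4.05 CPM in the other 6 vehicle mice and 0 to 2.37 CPM in the BDE-47 mice. Their 6 T cell markers summed to 244 to 355 CPM, against at most 10.9 CPM in the other 6 vehicle mice. Their lymph node stroma markers summed to 883 to 1220 CPM, against at most 9.87 CPM in the other 6 vehicle mice. In each of vehicle replicates 6 and 8, 3 of the 5 stroma markers were above 0 (Ccl21a in neither). Macrophage markers summed to 1563 to 2232 CPM in these mice (Adgre1 listed at 0), 129 to 918 CPM in the other vehicle mice and 151 to 637 CPM in the BDE-47 mice. Adipocyte markers, by contrast, summed to 281 to 769 CPM in vehicle replicates 6 and 8, with 4 and 5 of the 6 above 0 (Pparg in neither). Their sum was 6134 to 19454 CPM in the other vehicle mice and 2299 to 9995 CPM in the BDE-47 mice. The 7 markers of mammary epithelium were above 0 in every mouse, at 49.0 to 134 CPM in vehicle replicates 6 and 8, 556 to 1955 CPM in the other vehicle mice and 161 to 2638 CPM in the BDE-47 mice. BDE-47 replicate 6 stood apart as well, with a summed 74799 CPM of skeletal muscle markers against 35.4 to 146 CPM in the other 14 mice. Results are therefore given with all 15 mice and with the 13 mice that had Cd79a at 0, and the part that these tissue contents had in a difference was not tested.

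With all 15 mice, no interferon-stimulated gene differed between BDE-47 and vehicle mice beyond the spread between mice once p-values were adjusted over all genes. The means nevertheless leaned to lower values in BDE-47 mice, for 31 of the 40 members against 9 that were higher. This lean was smaller without vehicle replicates 6 and 8, with 21 lower, 18 higher and Oasl1 listed at 0 in all 13 mice. Over all 16314 genes above 0 in at least 1 mouse, 50.7% had a lower and 49.3% a higher mean in BDE-47 mice, and over the 15804 such genes of the 13 mice these shares were 49.6% and 50.4%. The median difference of group means over the 40 members, BDE-47 minus vehicle, was -0.44 log2(CPM) against -0.02 over all genes. Without the Cd79a mice it was -0.08 against 0.005.

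Values listed at 0 are part of these means. Of the 600 values of the 40 members, 226 (37.7%) were listed at 0, which was 33.8% of the values in vehicle mice, 42.1% in BDE-47 mice and 38.8% in the 6 vehicle mice without Cd79a. The share of mice above 0 was larger in vehicle than in BDE-47 mice for 25 members and smaller for 9, whereas over all genes it was larger in vehicle mice for 37.1% and smaller for 47.1%. Without the Cd79a mice it was larger in vehicle mice for 18 members and smaller for 15 (36.7% and 45.1% of genes). Values of 0 also occurred for genes with many reads in other mice. The 18 tested members with a median of at least 4 log2(CPM) in the mice above 0 were listed at 0 in 36 of 270 values (13.3%), and all 5736 tested genes of that kind in 11.2% of theirs.

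Limma tested the 27 members at or above 1 CPM in at least 7 mice. The other 13 were Ifit2, Dhx58, Oas1a, Oas2, Oas3, Oasl1, Mx1, Mx2, Xaf1, Cmpk2, Herc6, Trim21 and Epsti1. None of the 27 had an adjusted p under 0.05 (limma, 0.982 to 1.00 over the members), as was the case for 0% of the 9511 genes tested. A single member, Rsad2, had an unadjusted limma p under 0.05, and 4.66% of all genes tested did (2.72% lower and 1.93% higher in BDE-47 mice). Without the Cd79a mice, 2 of 26 tested members had such a p, Rsad2 and Ifi27l2a, against 4.51% of 8838 genes tested (3% lower, 1.52% higher), and 0% of genes passed the adjusted threshold. A mean lower by more than 1 log2 unit was found for 10 members against 10.5% of all genes, and a mean higher by more than 1 for none against 9.97%. In the 13 mice with Cd79a at 0, 6 of the 40 members were lower by more than 1, and 1664 of 15804 genes were (10.5%). Of the 40 members, 2 were higher by more than 1 (Ifitm1 and Eif2ak2), and 1638 of the 15804 genes were (10.4%). The groups overlapped for each of the 40 members, as they did for all but 0.00613% of genes.

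**Figure D1:**
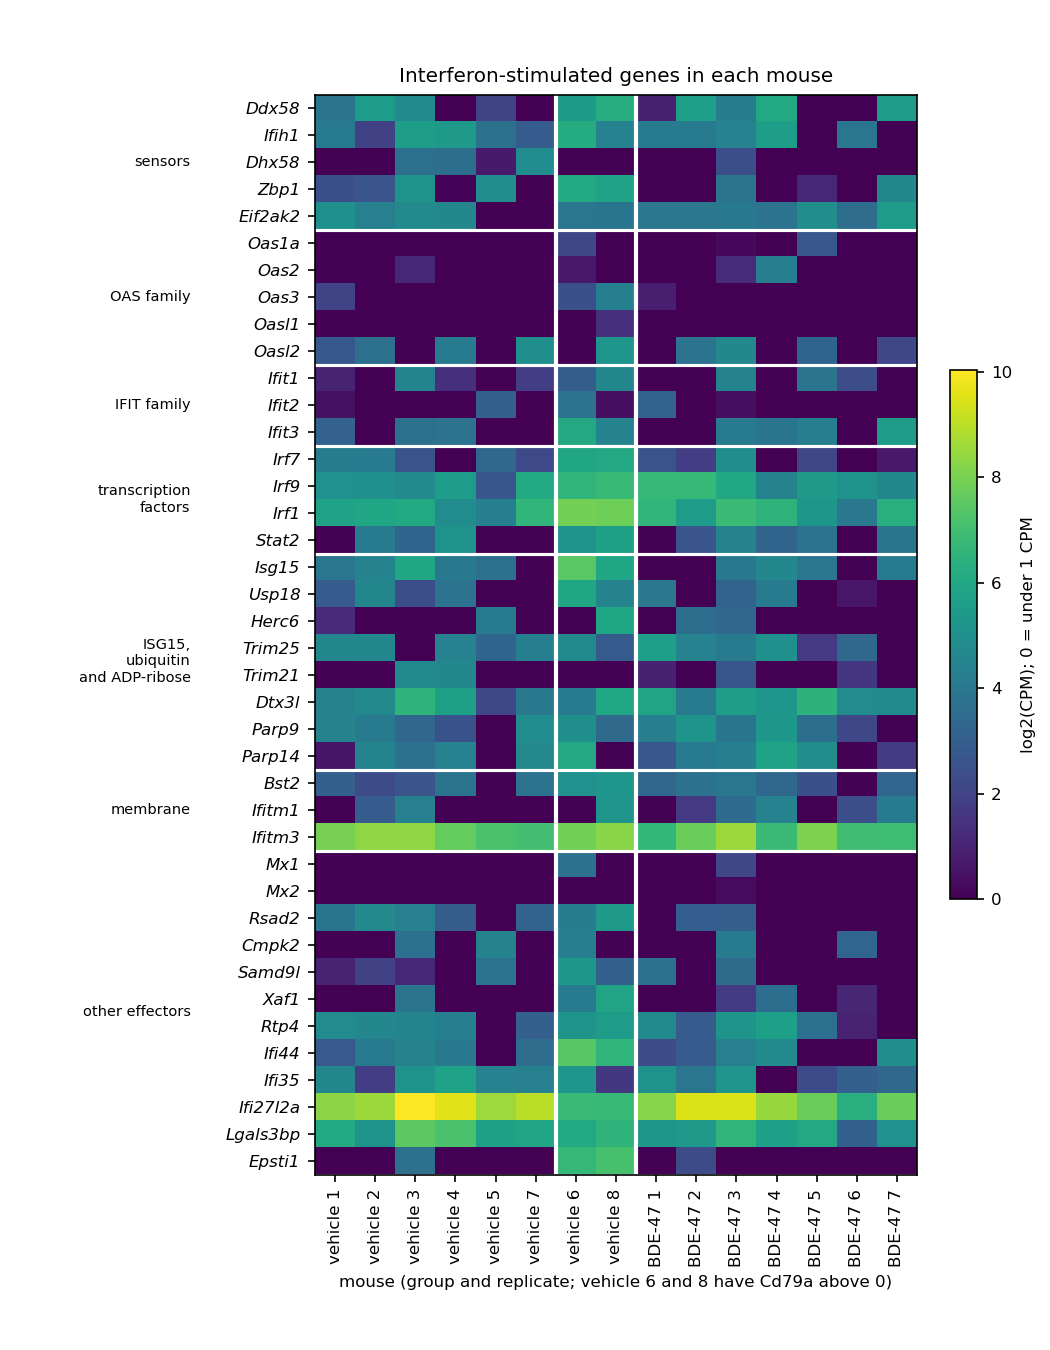
Heatmap of log2(CPM) of the 40 interferon-stimulated genes (rows, grouped by role) in each of the 15 mice (columns, vehicle replicates 6 and 8 between the white lines), with the color scale from 0 (under 1 CPM) to 10. Ifi27l2a and Ifitm3 are above 0 in every mouse and the brightest rows, the OAS rows apart from Oasl2 and the Mx rows are dark in most mice, and BDE-47 replicate 3 has 37 of 40 members above 0.

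The sensors recognize viral nucleic acid inside the cell. Zbp1 (chr2:173206612-173218959), which binds DNA and RNA in the Z form and can start cell death, was at 2.45, 2.65, 5.14, 0.10, 4.94, 6.10, 0 and 5.79 log2(CPM) in vehicle replicates 1 to 8. In BDE-47 replicates 1 to 7 it was at 0, 0, 3.87, 0, 1.15, 0 and 4.70. The highest vehicle values belonged to the mice with Cd79a, and BDE-47 replicates 3 and 7 lay among the vehicle mice. The difference of means was -2.01 (SE 1.15, limma p = 0.088, exact permutation p = 0.106), and -1.16 without the Cd79a mice (limma p = 0.294, exact permutation p = 0.343).

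Eif2ak2, which encodes the kinase PKR that halts translation when it binds double-stranded RNA, had the largest difference toward higher values in BDE-47 mice among the 40 members. It was above 0 in 6 of 8 vehicle mice, with values from 0 over a median of 4.16 to 5.02 log2(CPM), and in all 7 BDE-47 mice, from 3.59 over 3.99 to 5.54. The medians were close, and the higher mean in BDE-47 mice went with vehicle replicates 5 and 7, which were listed at 0. The difference was 0.94 (SE 0.90, limma p = 0.305, exact permutation p = 0.356), and 1.14 without the Cd79a mice (limma p = 0.258).

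Ifih1 encodes MDA5, the sensor of long double-stranded RNA. It was at 1.94 to 6.22 log2(CPM) in vehicle mice (median 4.31) and at 0 to 5.62 in BDE-47 mice (median 4.10), with BDE-47 replicates 5 and 7 listed at 0. The difference was -1.12 (SE 0.94, limma p = 0.241, exact permutation p = 0.263), and -0.78 without the Cd79a mice. Ddx58, the sensor RIG-I, was above 0 in 6 of 8 vehicle and 5 of 7 BDE-47 mice, with medians of 4.31 and 4.22 and highest values of 6.27 and 6.07. Its difference of -0.30 became 0.49 without the Cd79a mice. Dhx58, which encodes the regulator LGP2, was above 0 in 4 vehicle mice, up to 4.88, and in BDE-47 replicate 3 at 2.43. It was listed at 0 in both Cd79a mice, so that its difference went from -1.27 (exact permutation p = 0.161) to -1.81 without them (exact permutation p = 0.086).

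Active enzymes of the OAS family make the second messenger that activates RNase L, which cuts RNA in infected cells. Apart from Oasl2 this family was listed at 0 in most mice. Oasl2 was above 0 in 5 vehicle mice (median 3.22, highest 5.26) and 4 BDE-47 mice (median 2.13, highest 4.68), a difference of -0.62 (limma p = 0.584, exact permutation p = 0.584, and -0.61 without the Cd79a mice). Oas2 was above 0 in 3 vehicle mice, at most 1.16, and in 2 BDE-47 mice, at 1.29 and 4.30. Its difference of 0.56 (exact permutation p = 0.518), or 0.59 without the Cd79a mice, rested on BDE-47 replicate 4 at 4.30. Oas3 was above 0 in 3 vehicle mice, highest at 4.34 in replicate 8, and in 1 BDE-47 mouse at 0.84, a difference of -0.99 that was -0.22 without the Cd79a mice. Oas1a was above 0 in 1 vehicle and 2 BDE-47 mice (difference 0.15, and 0.42 without the Cd79a mice), and Oasl1 in vehicle replicate 8 alone, at 1.37. Oas1a, Oas2 and Oas3 lie together within 177 kb of chr5 (120730333 to 120907544), and Oasl1 and Oasl2 within 41.0 kb of the same chromosome.

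The IFIT proteins bind viral RNA that lacks the marks of host messenger RNA. The genes lie within 99.5 kb of chr19 (34550550 to 34650009). Ifit1 was above 0 in 6 vehicle mice (median 1.61, highest 4.65) and 3 BDE-47 mice (median 0, highest 4.49). The groups spanned the same range, and the difference of -0.50 (SE 1.00, limma p = 0.617, exact permutation p = 0.604) was 0.08 without the Cd79a mice. Ifit3 was above 0 in 5 vehicle mice (median 3.43, highest 6.04) and 4 BDE-47 mice (median 3.91, highest 5.53). Its difference was -0.10 (SE 1.17, limma p = 0.933, exact permutation p = 0.929), and 0.77 without the Cd79a mice (limma p = 0.510). Ifit2 was above 0 in 4 vehicle and 2 BDE-47 mice, with highest values of 3.81 and 3.21 and a difference of -0.46 that was -0.08 without the Cd79a mice. The near copy Ifit3b was above 0 in 4 mice of each group and Ifit1bl1 in none, and how reads shared by such copies were assigned is not given in the sources used here, so the split among them is uncertain.

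Among the transcription factors, Irf7 (chr7:141263183-141266499) amplifies the interferon response and is itself induced by it. It was at 4.20, 4.19, 2.61, 0, 3.34, 5.90, 2.22 and 6.06 log2(CPM) in vehicle replicates 1 to 8, and at 2.60, 1.82, 4.97, 0, 2.15, 0 and 0.70 in BDE-47 replicates 1 to 7. The mice with Cd79a were again the highest, and BDE-47 replicate 3 was above all other vehicle mice. The difference was -1.81 (SE 1.09, limma p = 0.103, exact permutation p = 0.088), and -1.01 without the Cd79a mice (limma p = 0.365, exact permutation p = 0.291).

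Irf9, Stat2 and Irf1 had smaller differences of means. Irf9 (chr14:55603985-55610030) was above 0 in all mice, at 5.31 ± 1.29 log2(CPM) across vehicle mice (n = 8, SD) and 5.59 ± 0.91 across BDE-47 mice (n = 7, SD). Vehicle mice ran from 2.69 over 5.29 to 6.75 and BDE-47 mice from 4.48 over 5.40 to 6.73, so the upper ends were level and the lowest value was that of vehicle replicate 5. The difference was 0.28 (SE 0.60, limma p = 0.648, exact permutation p = 0.662), and 0.72 without the Cd79a mice (limma p = 0.25, exact permutation p = 0.245). Stat2 (chr10:128270498-128292853) was above 0 in 5 mice of each group, from 0 over 3.65 to 5.75 in vehicle and from 0 over 3.25 to 4.49 in BDE-47 mice. Its difference was -0.32 (SE 1.14, limma p = 0.780, exact permutation p = 0.801), and 0.52 without the Cd79a mice. Irf1 (chr11:53770014-53778374), a factor induced by interferon gamma in particular, was at 6.17 ± 1.27 across vehicle mice (n = 8, SD) and 5.88 ± 1.00 across BDE-47 mice (n = 7, SD). Its vehicle mice ran from 4.32 over 6.02 to 7.94 and its BDE-47 mice from 4.03 over 6.35 to 6.84, with the Cd79a mice highest at 7.94 and 7.81. The difference of -0.29 (SE 0.55, limma p = 0.605, exact permutation p = 0.633) was 0.28 without them. Of the 4 factors, 3 had a lower mean in BDE-47 mice, and without the Cd79a mice 1 did (Irf7).

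Isg15 (chr4:156199424-156200818) encodes a ubiquitin-like protein that is attached to other proteins, and its promoter holds the 3 adjoining repeats shown above. It was at 3.95, 4.47, 5.88, 4.04, 3.70, 7.45, 0 and 5.91 log2(CPM) in vehicle replicates 1 to 8, and at 0, 0, 4.06, 4.64, 3.94, 0 and 4.17 in BDE-47 replicates 1 to 7. The 4 BDE-47 mice above 0 lay within the range of the vehicle mice, and the lower mean went with 3 BDE-47 mice listed at 0 and the high values of vehicle replicates 3, 6 and 8. The difference was -2.02 (SE 1.06, limma p = 0.063, exact permutation p = 0.104), and -1.27 without the Cd79a mice (limma p = 0.289, exact permutation p = 0.343). Usp18, the protease that takes ISG15 off its targets and damps the receptor, was above 0 in 6 vehicle mice (median 3.34, highest 5.92) and 4 BDE-47 mice (median 0.62, highest 4.12). Its difference was -1.31 (SE 1.11, limma p = 0.244, exact permutation p = 0.238), and -0.58 without the Cd79a mice.

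The ubiquitin ligases differed little in their medians. Trim25, which activates RIG-I, was above 0 in 7 vehicle and 6 BDE-47 mice, with medians of 4.39 and 4.17, highest values of 4.80 and 5.65 and differences of -0.14 and -0.08 with and without the Cd79a mice. Herc6, the ligase that attaches ISG15 in mice, was above 0 in 3 vehicle and 2 BDE-47 mice, with a highest value of 5.93 in vehicle replicate 8 and a difference of -0.41 that turned to 0.11 without the Cd79a mice. Trim21, the receptor for antibody inside cells, was above 0 in 2 vehicle and 3 BDE-47 mice, with highest values of 4.80 and 2.68 and differences of -0.44 with and -0.84 without the Cd79a mice.

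Dtx3l and Parp9, whose proteins form a complex of ubiquitin ligase and ADP-ribosyltransferase, lie with Parp14 within 141 kb of chr16, and Dtx3l (35926515 to 35939027) overlaps Parp9 (35938470 to 35972621) at its end. Dtx3l was at 4.73 ± 1.37 log2(CPM) across vehicle mice (n = 8, SD) and 5.28 ± 0.78 across BDE-47 mice (n = 7, SD), from 2.17 over 4.59 to 6.53 and from 4.09 over 5.28 to 6.47. The difference was 0.55 (SE 0.65, limma p = 0.400, exact permutation p = 0.380), and 0.67 without the Cd79a mice. The lowest mouse was vehicle replicate 5, without which the difference was 0.19, and the other values interleaved. Parp9 was above 0 in 7 vehicle and 6 BDE-47 mice, with medians of 3.79 and 3.89, highest values of 4.98 and 5.34 and a difference of 0.03, or 0.28 without the Cd79a mice. Parp14 was above 0 in 6 mice of each group, from 0 over 4.12 to 6.07 in vehicle and from 0 over 4.10 to 5.76 in BDE-47 mice. Its difference was 0.36 (SE 1.11, limma p = 0.749, exact permutation p = 0.761), and also 0.36 without the Cd79a mice.

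The membrane proteins of the list act at entry and release of virus. Ifitm3, which blocks fusion in endosomes, was at 7.83 ± 0.52 log2(CPM) across vehicle mice (n = 8, SD) and 7.39 ± 0.73 across BDE-47 mice (n = 7, SD). Vehicle mice ran from 7.03 over 7.94 to 8.35 and BDE-47 mice from 6.65 over 6.95 to 8.54, so that 4 BDE-47 mice were below all vehicle mice and replicate 3 was above them. The difference was -0.44 (SE 0.38, limma p = 0.247, exact permutation p = 0.188), and -0.36 without the Cd79a mice. Ifitm1 was above 0 in 3 vehicle mice (highest 5.23) and 5 BDE-47 mice (median 2.42, highest 4.44), a difference of 0.75 (SE 1.05, limma p = 0.481, exact permutation p = 0.495). In the 13 mice with Cd79a at 0 it was 1.09 (limma p = 0.295, exact permutation p = 0.324). Their near copy Ifitm2 was above 0 in 8 vehicle and 6 BDE-47 mice, and reads that fit several of these genes could have been split among them.

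Bst2 encodes tetherin, which holds budding virus at the cell surface. It was above 0 in 7 vehicle mice (median 3.44, highest 5.29) and 6 BDE-47 mice (median 3.31, highest 3.93). The medians were close, and vehicle replicates 6 and 8 were the only mice above 3.93. The difference was -0.38 (SE 1.01, limma p = 0.711, exact permutation p = 0.636), and 0.27 without the Cd79a mice (limma p = 0.816).

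Rsad2 (chr12:26442743-26456452), among the other effectors, encodes viperin, an enzyme that makes a chain-terminating nucleotide and so stops viral RNA synthesis. It was at 3.91, 4.72, 4.38, 2.96, 0, 4.22, 3.20 and 5.40 log2(CPM) in vehicle replicates 1 to 8. In BDE-47 replicates 1 to 7 it was at 0, 2.99, 3.03, 0, 0, 0 and 0. The 7 vehicle mice above 0 reached 2.96 or more, whereas 5 of 7 BDE-47 mice were listed at 0. BDE-47 replicates 2 and 3, at 2.99 and 3.03, lay at the lower end of the vehicle range. The groups overlapped through vehicle replicate 5, listed at 0, and through vehicle replicate 4, which at 2.96 lay below BDE-47 replicates 2 and 3. The difference was -2.74 (SE 1.03, limma p = 0.011, limma adjusted p = 0.982, exact permutation p = 0.0079, two-sided, where 0.000155 is the smallest p that 15 mice allow). Without the Cd79a mice it was -2.34 (SE 1.04, limma p = 0.028, limma adjusted p = 0.984, exact permutation p = 0.033), and without BDE-47 replicate 6 as well it was -2.19. At the median of the mice above 0, 15.1 CPM, the mice listed at 0 would have held 152 to 295 reads. Rsad2 was the single member of 40 with an exact permutation p under 0.05, with and without the Cd79a mice. The share of all genes under 0.05 by this test was not computed. By limma, 4.66% of all genes tested in the 15 mice had an unadjusted p under 0.05.

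**Figure D2:**
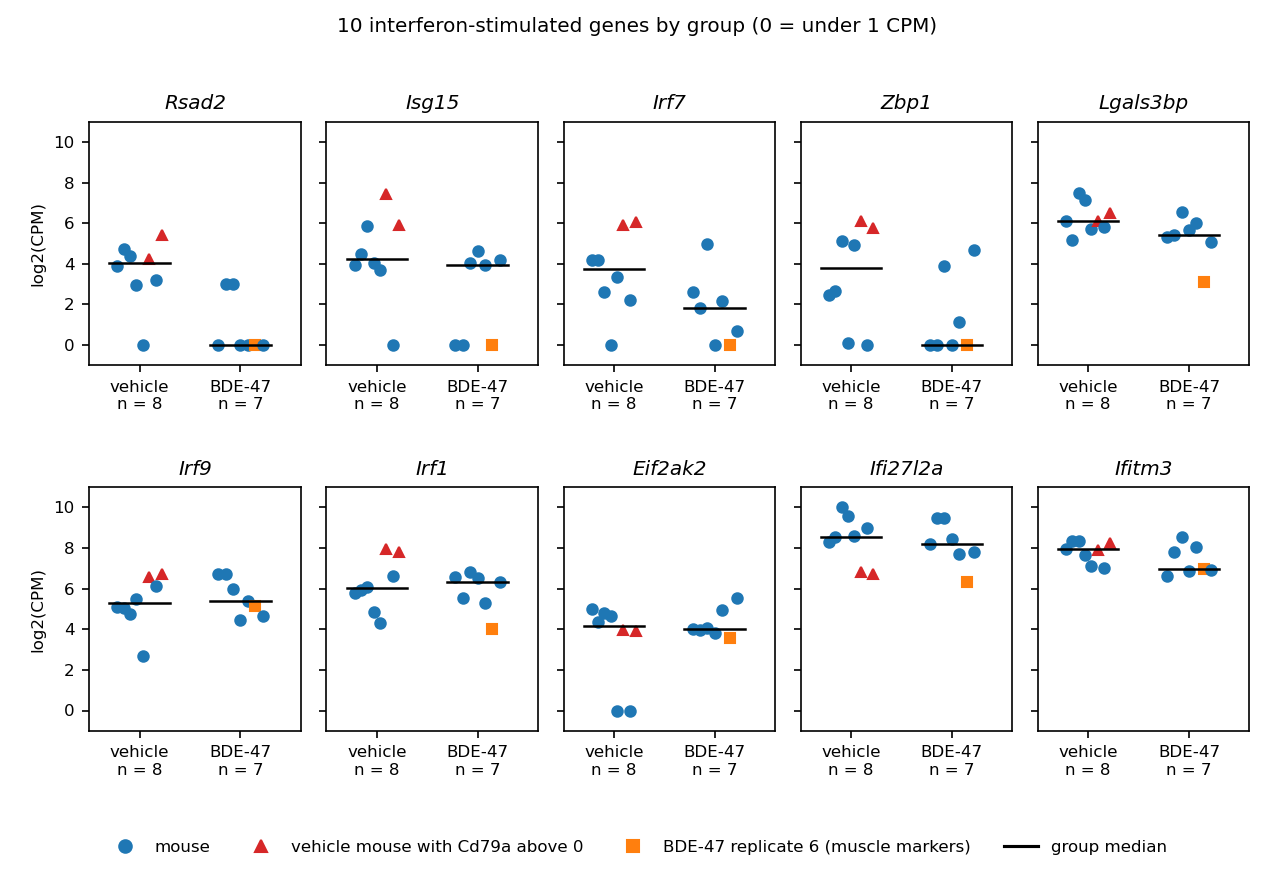
Log2(CPM) of 10 interferon-stimulated genes in 8 vehicle and 7 BDE-47 mice, with 1 point per mouse, a line at the group median, triangles for the vehicle mice with Cd79a and a square for BDE-47 replicate 6. Rsad2 is above 0 in 7 of 8 vehicle and 2 of 7 BDE-47 mice, the triangles are the highest points for Irf7, Irf1 and Zbp1 and the lowest vehicle points for Ifi27l2a, and the groups overlap in each panel.

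Lgals3bp (chr11:118392747-118401959), which encodes a secreted glycoprotein that binds galectins, was above 0 in all mice, at 6.26 ± 0.77 log2(CPM) across vehicle mice (n = 8, SD) and 5.32 ± 1.08 across BDE-47 mice (n = 7, SD). Vehicle mice ran from 5.17 over 6.10 to 7.51 and BDE-47 mice from 3.13 over 5.43 to 6.55, and the lowest value was that of the mouse with skeletal muscle. The difference was -0.94 (SE 0.53, limma p = 0.085, exact permutation p = 0.062). It was nearly as large without the Cd79a mice, at -0.93 (SE 0.56, limma p = 0.101, exact permutation p = 0.126), and its range with single mice left out was -1.15 to -0.58.

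Ifi27l2a, an interferon-induced gene of unsettled function, had the largest share of the CPM of the list, 32.2%, ahead of Ifitm3 with 16.8% and Irf1 with 6.67%. It was at 8.45 ± 1.17 log2(CPM) across vehicle mice (n = 8, SD) and 8.21 ± 1.10 across BDE-47 mice (n = 7, SD). The vehicle mice split, with the Cd79a mice at 6.84 and 6.75 and the other 6 at 8.28 to 10.03, and BDE-47 mice ran from 6.33 over 8.19 to 9.50. The difference was -0.24 (SE 0.45, limma p = 0.599, exact permutation p = 0.694). Without the Cd79a mice it was -0.79 (SE 0.37, limma p = 0.038, limma adjusted p = 0.984, exact permutation p = 0.158), and without the mouse with skeletal muscle as well it was -0.48.

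Mx1, a GTPase that traps viral nucleocapsids, was above 0 in vehicle replicate 6 at 3.75 log2(CPM) and in BDE-47 replicate 3 at 2.15, a difference of -0.16 (exact permutation p = 1) that turned to 0.31 without the Cd79a mice. Mx2 was above 0 in BDE-47 replicate 3 alone, at 0.29. Ifi44 was above 0 in 7 vehicle mice (median 4.10, highest 7.44) and 5 BDE-47 mice (median 2.89, highest 5.01), with a difference of -1.38 that was -0.42 without the Cd79a mice. Epsti1 was above 0 in 3 vehicle mice, the Cd79a mice at 6.69 and 7.12 and replicate 3 at 3.69, and in 1 BDE-47 mouse at 2.35, so that its difference of -1.85 was -0.28 without the Cd79a mice. Samd9l, a restriction factor for poxviruses, was above 0 in 6 vehicle mice (median 1.58, highest 5.33) and 2 BDE-47 mice (highest 3.69), with differences of -1.02 and -0.30 in turn. Xaf1, which promotes cell death, was above 0 in 3 mice of each group, with highest values of 5.87 and 3.61 and a difference of -0.83 that turned to 0.26 without the Cd79a mice. The last of these effectors showed no clear split between the groups. Ifi35 was at 1.63 to 5.79 in vehicle mice (median 4.53) and at 0 to 5.24 in BDE-47 mice (median 3.37), with a difference of -0.84 that was -1.06 without the Cd79a mice. Rtp4, a chaperone of receptors, was above 0 in 7 vehicle mice (median 4.58, highest 5.496) and 6 BDE-47 mice (median 3.65, highest 5.68), with a difference of -0.70 that was -0.25 without the Cd79a mice. Cmpk2, a mitochondrial nucleotide kinase, was above 0 in 3 vehicle and 2 BDE-47 mice, with highest values of 4.47 and 4.18 and differences of -0.49 and -0.29 with and without the Cd79a mice.

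By role, the members are described by counts and medians, with no test. The 12 other effectors had 11 lower means and a median difference of -0.83 (9 lower and -0.29 without the Cd79a mice), and the 5 sensors had 4 lower means and -1.12 (3 lower and -0.78). The 3 IFIT genes went from 3 lower means and -0.46 to 1 lower and 0.08, and the 4 transcription factors from 3 lower and -0.30 to 1 lower and 0.40. The 8 genes of the ISG15, ubiquitin and ADP-ribose group had 5 lower and -0.28 (4 lower and 0.01 without the Cd79a mice), the 3 membrane genes 2 lower and -0.38 (1 lower and 0.27), and the 5 OAS genes 3 lower and -0.17 (2 lower and 0). Of the members, 13 also stand in the reference list for cGAS-STING signaling that the study used. These had 11 lower means and a median difference of -0.94 (8 lower and -0.30 without the Cd79a mice), and the other 27 members had 20 lower means and -0.38 (13 lower and 0).

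**Figure D3:**
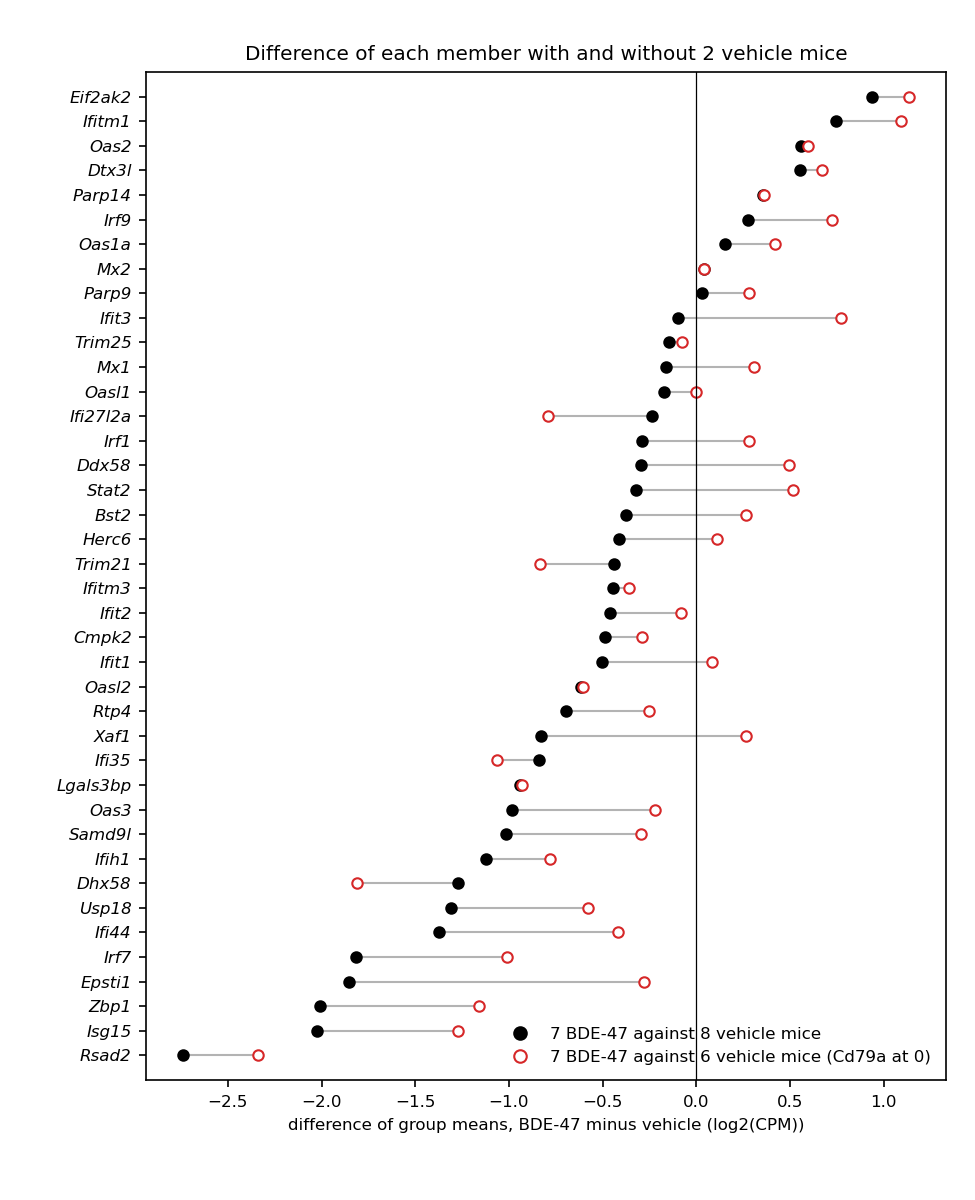
Difference of group means of log2(CPM), BDE-47 minus vehicle, for each of the 40 members, with all 8 vehicle mice (filled points) and with the 6 vehicle mice that had Cd79a at 0 (open points). The open points lie to the right of the filled ones for most members, 9 members change sign, Oasl1 goes to 0, and Rsad2 stays lowest at -2.74 and -2.34.

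Within the vehicle group, the mice with Cd79a had the higher levels of most members. The mean of vehicle replicates 6 and 8 was above that of the other 6 vehicle mice for 35 members and below it for 4 (Ifi35, Dhx58, Ifi27l2a and Trim21). For 9 members both mice were higher than each of the other 13, namely Isg15, Ifi44, Oas3, Irf7, Irf1, Xaf1, Bst2, Zbp1 and Epsti1. For Rsad2, vehicle replicate 8 was the highest of all mice at 5.40 and replicate 6, at 4.22, lay below the highest of the other 13 at 4.72. For Lgals3bp both, at 6.09 and 6.51, lay below the highest of the other 13 at 7.51. These mice were chosen by Cd79a and not by the interferon-stimulated genes, but with 2 mice of a single group no comparison of them with the rest was tested. The same counts over all genes were not made. Since the tissue contents of these mice differed widely, the counts do not set the members apart from other genes.

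Over the 40 members, the mean log2(CPM) per mouse was 1.81 to 4.27 in vehicle mice (median 2.78) and 1.47 to 3.74 in BDE-47 mice (median 2.29). The Cd79a mice were the highest, at 4.08 and 4.27, and the other 6 vehicle mice lay at 1.81 to 3.52 (median 2.67), so that they spanned most of the range of the BDE-47 mice. Without Ifi27l2a and Ifitm3, which dominate the sum, the members summed to 1517 and 1679 CPM in the Cd79a mice, 249 to 863 CPM in the other vehicle mice and 169 to 786 CPM in the BDE-47 mice.

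The number of members above 0 was 18 to 33 in vehicle mice (median 27) and 18 to 37 in BDE-47 mice (median 22). BDE-47 replicate 3 had 37, the most of all mice, and was also the mouse with the most genes above 0 in all, 12689 against 6932 to 11490 in the other 14 mice. Over all 40 members its mean of 3.74 log2(CPM) was the highest of the BDE-47 mice and above the other 6 vehicle mice (at most 3.52). Over its members above 0 alone, which were more than in any other mouse, the mean was 4.04. That mean was 5.10 and 5.18 in the Cd79a mice, 3.61 to 4.60 in the other vehicle mice and up to 5.05 in BDE-47 mice. The Cd79a mice, by contrast, had 32 and 33 members above 0 among 8269 and 8366 genes, close to the median of 8366 genes over all mice.

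**Figure D4:**
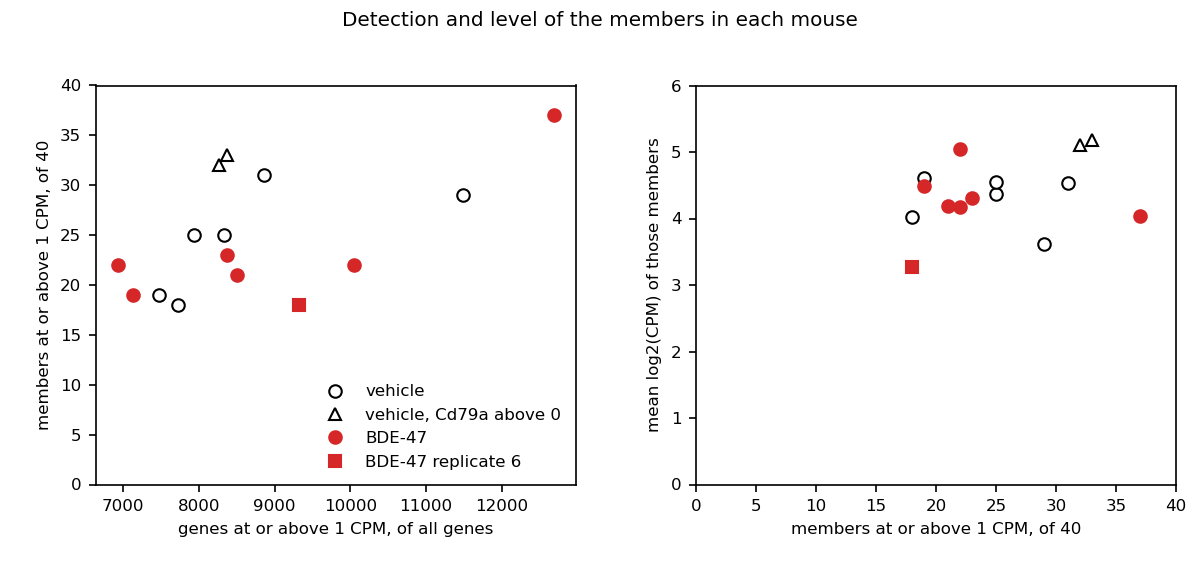
Number of the 40 members at or above 1 CPM in each mouse against the number of all genes at or above 1 CPM (left), and mean log2(CPM) of those members against their number (right). BDE-47 replicate 3 is far to the right in the left panel with 37 members and 12689 genes, and the Cd79a mice (triangles) combine 32 and 33 members with the highest means, 5.10 and 5.18.

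Other genes of the pathway gave the setting of these values. All 21 interferon genes, of types I, II and III, were listed at 0 in every mouse, which, as for other genes, does not show that their transcripts were missing. Of the 6 receptor genes 5 were tested, with 5 lower and 1 higher mean in BDE-47 mice (4 and 2 without the Cd79a mice). While 4.66% of all genes tested in the 15 mice had an unadjusted limma p under 0.05, 1 receptor gene did. That gene was Ifngr1, the binding chain of the interferon gamma receptor, at 6.15 ± 0.69 log2(CPM) across vehicle mice (n = 8, SD) and 4.73 ± 1.29 across BDE-47 mice (n = 7, SD). Its difference was -1.41 (SE 0.58, limma p = 0.019, limma adjusted p = 0.982, exact permutation p = 0.014), and -1.18 without the Cd79a mice (limma p = 0.061, exact permutation p = 0.060). With all 15 mice the chains of the type I receptor had lower means as well, Ifnar2 with medians of 4.78 and 3.22 (difference -1.68, limma p = 0.10, exact permutation p = 0.13, and -1.10 without the Cd79a mice). Ifnar1 was above 0 in 4 vehicle and 2 BDE-47 mice, with a difference of -0.71 that turned to 0.28 without the Cd79a mice.

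Of the 8 kinases and factors, all tested, none had an unadjusted limma p under 0.05, and 5 were lower and 3 higher in the mean, against 1 lower and 7 higher without the Cd79a mice. Of the 7 inhibitors, all tested, none had an unadjusted limma p under 0.05, with 4 lower and 3 higher means with and without the Cd79a mice. Irf2 stands in both lists and is counted as lower in each, with and without the Cd79a mice.

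Markers of plasmacytoid dendritic cells, known as strong producers of type I interferon, were also examined. The 6 markers summed to 281 to 803 CPM in the vehicle mice without Cd79a, 342 to 486 CPM in those with it and 144 to 2616 CPM in BDE-47 mice (144 to 910 CPM without replicate 6), with Ccr9 and Klk1 listed at 0 in every mouse. Siglech, a surface receptor of these cells, was at 5.97 and 7.11 log2(CPM) in the Cd79a mice and at 0 to 2.93 in the other 13. The sum did not follow Siglech, and the rest of it came from Tcf4, Ly6d and Cox6a2. How far those genes mark plasmacytoid dendritic cells in this tissue was not tested.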

How the data were processed

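Mammary tissue of 15 mice was measured by QuantSeq 3′ FWD, with 1 library per mouse and no technical replicates. The submitters' processing notes name STAR 2.5.3a and GRCm38, and the authors normalized reads to CPM. The deposited tables hold log2 values of this CPM, and a gene below 1 CPM is listed at 0, as read from the values. Zeros also occur for genes with many reads in other mice, and how they arose is not given in the sources used here. Whole reads recovered from the spacing of low values (tolerance 0.1 reads, 100% whole) gave depths of 10.06 to 19.58 M, and precision is limited by the number of mice and by the floor. Of 52636 entries, 110 that repeat a name were dropped in favor of the row with the highest mean.

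Groups were taken from the labels. Genes at or above 1 CPM in at least 7 mice were tested with limma 3.58.1 (trend in the prior variance, Benjamini-Hochberg adjustment over all genes tested) in R 4.3.3, and single members with the exact two-sided permutation test, on the values as deposited. A difference that includes values of 0 depends on the floor. The presence of a xenograft, a covariate in the study, is not given in the labels used here and did not enter. Whether same-numbered mice pair was checked: their deviations from the group means correlated at -0.018 to 0.053 over 7 pairs. These correlations were low, but 4 BDE-47 and 3 vehicle mice correlated best with the mouse of their own number. Whether the numbers mark a shared block cannot be told from these values. The reported fit did not use them as pairs, and a fit with the replicate block is given among the alternatives. No 2 mice had identical values.

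The 40 members, the marker and pathway lists and the rule for named genes were chosen with earlier results of these data known. By that rule every member is accounted for, ranges are given for members above 0 in at least 7 mice, and full statistics for the 5 members with the smallest limma p in each direction and 14 fixed members. Genes that every cell uses were listed after the data were seen. Sequences and coordinates are from RefSeq (GRCm38.p6). Alternatives were log2(CPM + 0.1) and log2(CPM + 1), other filters, median-of-ratios size factors, no trend, the replicate block, each mouse left out, the 13 mice with Cd79a at 0 and, added after the data were seen, the 12 of these without BDE-47 replicate 6. The values of 1 pathway gene are not reported here. The limma step was tested on simulated normal values. These were not made to hold the scattered zeros of genes with many reads, so that test does not cover them. Python 3.11.15, numpy 2.4.6, pandas 2.3.3 and matplotlib 3.10.9 did the rest.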

Additional observations from a re-analysis of the deposited data

Results flagged for a closer look

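In each group, the highest and the lowest mouse were compared with the nearest other mouse by the ratio of that gap to the whole range of the group (Dixon's 95% limit for the size of the group). Of 60 pairs of group and measure 6 were past the limit. Its rate of about 1 in 20 by chance holds for normal values. Values listed at 0 are not of that kind, so the count cannot be held against that rate. Vehicle replicate 5 lay below the rest of its group for Rsad2 and for Rtp4, at 0 log2(CPM) with the nearest vehicle mouse at 2.96 and 3.07. Vehicle replicate 3 was listed at 0 for Trim25, with the nearest vehicle mouse at 2.85. BDE-47 replicate 6, the mouse with skeletal muscle markers, was listed at 0 for Bst2 (nearest 2.44) and was at 3.13 for Lgals3bp (nearest 5.09). BDE-47 replicate 3 had 37 members above 0 against 23 in the next BDE-47 mouse.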

How the results depend on the processing

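Several differences between BDE-47 and vehicle mice changed sign with the mice included. No gene passed the adjusted threshold in the reported limma fit (443 of 9511 genes at an unadjusted p under 0.05) or in 23 of the other 24 fits (339 to 573 genes). Without the Cd79a mice and the mouse with skeletal muscle 1 gene did, Wfdc18, which is no member. Members lower in BDE-47 mice were 31 of 40 and 25 to 34 with single mice left out, 27 with the replicate block, 21 without the Cd79a mice and 19 without the mouse with skeletal muscle as well. The median difference of the members was -0.44, -0.70 (without BDE-47 replicate 3) to -0.25 (without vehicle replicate 8) with single mice left out, -0.25 with the replicate block, -0.36 with median-of-ratios size factors, -0.61 with log2(CPM + 0.1), -0.08 without the Cd79a mice and 0.0018 without all 3 mice. Members with an unadjusted limma p under 0.05 were 1 in the reported fit and 2 with genes of a mean of at least 1 CPM, 2 without the Cd79a mice, and 1 to 4 with single mice left out, with 4 without BDE-47 replicate 3, 3 without BDE-47 replicate 7, vehicle replicate 4 or vehicle replicate 7, and 2 without BDE-47 replicate 4 or 5 or vehicle replicate 2. Rsad2 was lower with an unadjusted p under 0.05 in each of the 24 other fits (limma p 0.0030 to 0.049, limma adjusted p 0.807 to 0.998, difference -4.70 to -2.19). With single mice left out, Bst2 ran from -0.84 to 0.10, Ifit3 from -0.60 to 0.39, Irf1 from -0.55 to 0.020, Irf9 from -0.10 to 0.48, Parp14 from -0.075 to 0.92 and Stat2 from -0.74 to 0.11. With the replicate block, which left out vehicle replicate 8, Ifit3 was at 0.16, Parp14 at -0.075 and Stat2 at 0.085, and no call changed. Of the mice with a partner, 4 BDE-47 and 3 vehicle mice correlated best with the mouse of their own number. With the Cd79a mice left out, Bst2 was at 0.27, Ifit1 at 0.085, Ifit3 at 0.77, Irf1 at 0.28 and Stat2 at 0.52. Without the mouse with skeletal muscle as well, Bst2 was at 0.74, Ifit3 at 1.197, Irf1 at 0.59 and Stat2 at 0.95. The cause of these shifts was not tested. Over all results and settings, 402 differences of named members kept their sign and their side of the adjusted threshold, and 28 changed sign. No named member passed the adjusted threshold in any of these fits. Isg15, Irf7, Lgals3bp and Zbp1 did change sides of the unadjusted threshold in some fits, which the count of 402 leaves out. What the floor hides cannot be told, since 13 members were listed at 0 in most mice and how values of 0 arose for genes with many reads elsewhere is not given in the sources used here.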

Other observations

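Members that lie near each other on a chromosome were not always listed above 0 in the same mice. Rsad2 and Cmpk2, a pair of neighbors 12.7 kb apart on chr12 whose enzymes both act on nucleotides, were both above 0 in 3 mice, with Rsad2 alone in 6, Cmpk2 alone in 2 and neither in 4. Ifit1 and Ifit3 were both above 0 in 7 mice, each alone in 2, and neither in 4. Ifitm3 was above 0 in all 15 mice, and Ifitm1, within 43.3 kb of it on chr7, in 8. Dtx3l was above 0 in all 15 mice and Parp9, which overlaps it, in 13. These counts are given as values and were not tested.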
